A study of Mus musculus with 12 samples.

Results

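The gamma-secretase inhibitor L-685.458 was compared with no inhibitor in mouse endothelial cells kept at low oxygen. The comparison rests on 6 of the 12 arrays of the series: 3 of hypoxic cells with the inhibitor and 3 of hypoxic cells without it. A probe entered the comparison when 3 or more of these 6 arrays gave it a detection p-value below 0.05. This gave 13509 of the 25697 probes on the array, and 9183 genes, each read from the brightest of its probes over the 6 arrays.

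Cells of the wild-type embryonic stem cell line CCE, a male line of the mouse strain 129/Sv, were grown as embryoid bodies for 4 days. Progenitors carrying Flk1, the VEGF receptor encoded by Kdr, were then sorted and cultured for 4 days on collagen IV. Cells carrying CD31, encoded by Pecam1, were sorted for RNA, so each array measured a pool of more than 50,000 sorted cells from 1 stem cell line. The groups were hypoxia (1.5 to 2% oxygen) with 4 µmol/l L-685.458, hypoxia without it, and, for reference to ordinary oxygen, normoxia (21% oxygen) with 4 µmol/l L-685.458 and normoxia without it, with 3 biological replicates each. Pecam1, Cdh5 (VE-cadherin) and Kdr were detected on all 6 hypoxic arrays.

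Gamma-secretase is a protease inside the membrane, built from presenilin, nicastrin, APH-1 and PEN-2. After a ligand on a neighbouring cell binds a Notch receptor, ADAM10 cuts the receptor outside the membrane and gamma-secretase cuts it within the membrane. The freed intracellular domain then joins RBPJ and Mastermind proteins on DNA and turns on genes such as those of the Hes and Hey families. In endothelium, Notch is known for setting arterial identity and for holding back tip cell formation during VEGF-driven sprouting. L-685.458 is a peptide-like compound that resembles the transition state of the protease reaction and binds at the active site.

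The arrays differed little in depth, with mean signals of 526 to 629 intensity units and 13253 to 13901 probes detected. The third array of hypoxia with the inhibitor stood apart from the others. It scored 44.3 on the first principal component, which held 48.2% of the variance, against -9.88 to -8.28 on the other 5 arrays. On that array 558 probes lay more than 2-fold from the mean of arrays 1 and 2 of its group, against 28 probes between arrays 1 and 2 themselves. The genes farthest above were Chac1 (4.01 on the log2 scale), Bdnf (3.14) and Slc6a9 (3.10), and those farthest below were Gtsf1l (-2.46), Rhox9 (-2.26) and Pou5f1 (-2.22). The third hypoxic array without the inhibitor was also the farthest from its group, with 226 such probes. In normoxia the third arrays deviated too, with 397 such probes with the inhibitor and 391 without it. Between arrays 1 and 2 of those groups there were 15 and 14. Results are therefore also given without the third inhibitor array where its removal matters. Leaving out that array alone kept the third hypoxic array without the inhibitor, which deviated as well.

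The inhibitor was accompanied by lower signals of Hey1, of the connexin genes Gja5 and Gja4 and of other artery-associated genes, and by higher signals of Fos, Egr1 and Tuba8. In the limma fit over all 12 arrays 0 of the 13509 probes passed an adjusted p of 0.05 (0% called in either direction). The lowest adjusted p was 0.0565, shared by Tuba8, which was higher with the inhibitor, and Hey1, which was lower. Tuba8 passed the detection rule through the inhibitor arrays alone, and that rule favoured the higher direction. At an unadjusted p under 0.05, 268 probes were higher (1.98% of those tested) and 288 were lower (2.13%). The 3 inhibitor values lay wholly above the 3 others in 563 probes (4.17%) and wholly below in 668 (4.94%), and over genes in 358 (3.9%) and 453 (4.93%). A 2-sided exact permutation test of 3 against 3 arrays cannot go below 0.1, so single values were tested only in the fit across all probes.

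The count of called probes depended on how the third arrays were treated. With each array weighted by its closeness to its group mean, in which the third inhibitor array received a weight of 0.206 and the other 5 hypoxic arrays weights of 0.504 to 1.89, 17 probes passed an adjusted p of 0.05 (0.126%), 5 higher and 12 lower. These were Hey1, 3 probes of Gja5, Gja4, Vegfc, Esm1, Armcx6, Atrx, Hira, Pkig and Pdyn on the lower side, and Tuba8, Egr1, Fos, Ssh3 and Rsad2 on the higher side. Tuba8, Ssh3, Pdyn and the dimmest Gja5 probe passed the detection rule through a single group, which favoured their direction. Without the arrays numbered 3 of all 4 groups, an alternative added after the data were seen, 41 probes passed, 17 higher and 24 lower. In the plain fit without the third inhibitor array alone, 0 probes passed.

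**Figure D1:**
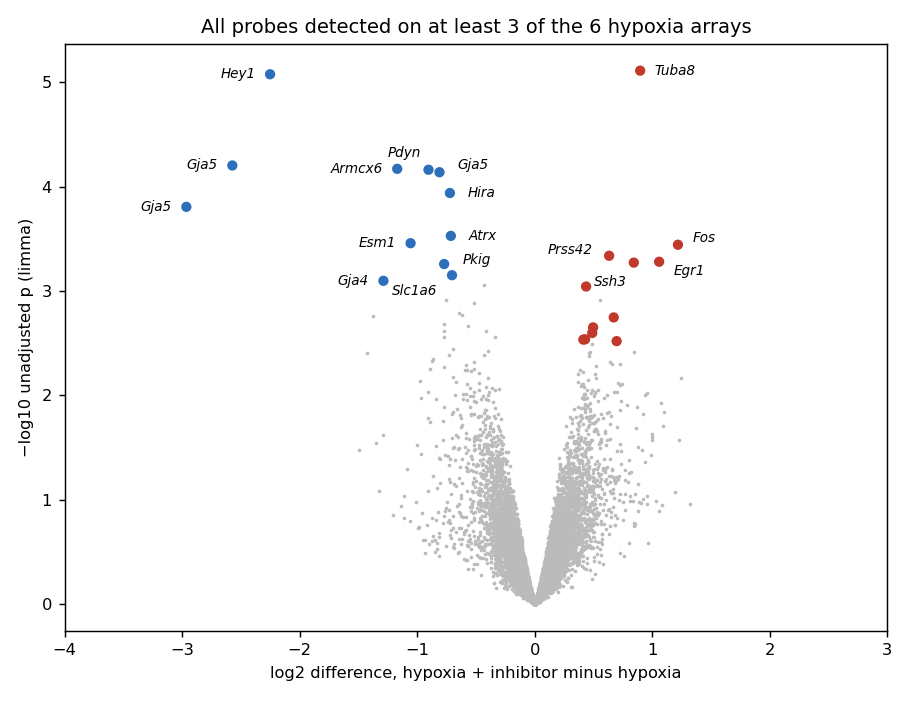
Each point is 1 of 13509 probes: the horizontal axis is the log2 difference of hypoxia with inhibitor minus hypoxia, the vertical axis the −log10 unadjusted p of limma; the 12 named probes higher with the inhibitor are red, the 12 lower are blue. Tuba8 (0.90) and Hey1 (-2.25) stand at the top, and 2 probes of Gja5 (-2.57 and -2.96) lie farthest to the left.

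The protease and the genes that prepare Notch receptors for it measured much the same in both groups. Of 17 measured genes of this list, 0 had inhibitor values apart from the others in either direction, and their median log2 difference was -0.0121, against -0.0024 over all 9183 genes. Ncstn, the nicastrin subunit, had log2 signals of 10.92, 11.08 and 11.01 with the inhibitor, against 11.03, 10.82 and 10.99 without it, a difference of 0.06 (95% interval -0.22 to 0.34). Psen2, a presenilin, had 6.96, 7.30 and 7.30 with the inhibitor, against 7.18, 7.27 and 7.40 without it, a difference of -0.10 (95% interval -0.40 to 0.20). The groups overlapped for both subunits. The largest difference of the list was that of Adam10, the protease that makes the outer cut, at 0.50.

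Of 8 measured receptor and ligand genes, 1 had its inhibitor values apart from the others, in the lower direction (12.5%, beside 4.93% of all genes tested), and the list's median was 0.05 (0.13 without the third inhibitor array). That gene was Notch1, the receptor named first for arterial fate, with 9.77, 9.82 and 9.51 with the inhibitor, against 10.07, 10.06 and 9.99 without it. Each inhibitor array lay below each array without it, but the difference of -0.34 (SE 0.11) had a limma adjusted p of 0.995. Notch4, an endothelial receptor, had 12.39, 12.47 and 11.58 with the inhibitor, against 12.44, 12.47 and 12.48 without it, so that its difference of -0.32 came to -0.03 without the third inhibitor array. A second, dimmer probe of Notch4 was wholly lower, at -0.38 (-0.15 without the third inhibitor array). Jag1, a ligand, had 8.30, 8.11 and 8.93 with the inhibitor, against 7.46, 7.75 and 8.54 without it, and these ranges overlapped (difference 0.53, 95% interval -0.18 to 1.24; 0.29 without the third inhibitor array). Dll4, the ligand of tip cells, was detected on 0 of 3 arrays with the inhibitor and on 2 of 3 without it, so it did not meet the detection rule and was not tested. Among 6 measured genes of the nuclear complex, the Mastermind genes Maml1 to Maml3 included, 0 had groups apart, and the median was 0.03 (-0.0056 without the third inhibitor array). Rbpj was detected on 1 array of each group.

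Among the classical Notch targets, Hey1 measured lower by far. Its log2 signals were 6.84, 6.59 and 7.27 with the inhibitor, against 9.18, 9.15 and 9.13 without it. The groups did not come near each other, and the highest inhibitor value belonged to the third array. Hey1 encodes a basic helix-loop-helix repressor that Notch induces directly in endothelium. The difference was -2.25 (SE 0.30), a 4.76-fold lower signal, with a limma adjusted p of 0.0565. It was -2.44 without the third inhibitor array (adjusted p = 0.0841) and -2.43 with array weights (adjusted p = 0.00048).

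The other targets did not share this size of difference. Of 17 measured genes of the target list, 2 lay wholly lower with the inhibitor (11.8%, beside 4.93% of all genes tested) and 0 wholly higher, and the median was -0.08. Hes1, another helix-loop-helix repressor, had 7.74, 7.69 and 8.76 with the inhibitor, against 8.38, 8.27 and 8.63 without it. Inhibitor arrays 1 and 2 lay below the arrays without it and array 3 lay above them. The difference was -0.36 (95% interval -0.91 to 0.19), and -0.71 without the third inhibitor array (adjusted p = 0.777). Nrarp, a feedback inhibitor of Notch, had 10.63, 10.75 and 9.01 with the inhibitor, against 10.84, 10.81 and 10.72 without it. Here the third array alone was far below, and the difference of -0.66 came to -0.10 without it. Efnb2, the arterial ephrin, had 8.65, 8.80 and 8.91 with the inhibitor, against 9.09, 9.21 and 9.05 without it, which are apart (difference -0.33, adjusted p = 0.995). Hey2 and Heyl, the other members of the Hey family, were each detected on too few of the 6 arrays to be kept, Hey2 on 1 array of each group and Heyl on 0 with the inhibitor and 2 without it. Among 22 measured genes for other gamma-secretase substrates, 2 were apart lower (Efnb2 and Sdc3) and 2 apart higher (Efnb1 and App), and the median was -0.0123 (-0.075 without the third inhibitor array). Each of these counts is 9.09%, beside 4.93% lower and 3.9% higher over all genes tested.

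Artery-associated genes measured lower together. Of 22 measured genes of the arterial list, 8 had inhibitor values wholly below the others and 0 wholly above, where 4.93% of all genes tested were wholly below. The list's median was -0.33, and -0.32 without the third inhibitor array, against -0.0024 over all genes. Of the 22, 18 had a negative and 4 a positive difference. The direction of this list was already known from earlier results of these arrays, and Hey1, Notch1 and Efnb2 belong to it as well as to the Notch lists. In RNA from pooled cells, fewer cells of a type and less RNA per cell cannot be told apart.

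Gja5 encodes a connexin, a gap junction protein of arterial endothelium. Its brightest probe had log2 signals of 6.52, 6.59 and 8.14 with the inhibitor, against 10.30, 10.37 and 9.47 without it. The groups were apart, and the third array of each group lay nearest to the other group. The difference was -2.96 (SE 0.54), a 7.81-fold lower signal with an adjusted p of 0.263, and -3.57 with array weights (adjusted p = 0.000899). The 2 other kept probes of Gja5 measured in the same direction, at -2.57 (detected on 1 of 3 inhibitor arrays) and -0.81. The dimmer of these was not well above background on any inhibitor array, which makes its signal at least 1.31-fold lower there, taking the lowest detected signal of each array as the floor. That probe passed the detection rule through the arrays without the inhibitor alone, and the rule favoured the lower direction.

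Gja4 encodes the connexin that shares gap junctions with that of Gja5 in arteries. It had 7.54, 7.91 and 8.77 with the inhibitor, against 9.22, 9.16 and 9.70 without it. The groups were apart, again with the third array as the highest of the inhibitor group. The difference was -1.29 (SE 0.29), a 2.44-fold lower signal (adjusted p = 0.634), and -1.45 with array weights (adjusted p = 0.00943). Vegfc, a growth factor for VEGF receptor 3, had 7.53, 7.59 and 8.69 with the inhibitor, against 9.52, 9.71 and 8.86 without it. All 3 inhibitor values were lower, the third by a narrow margin. The difference was -1.43 (SE 0.40, adjusted p = 0.995), and -1.89 with array weights (adjusted p = 0.0147).

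Sema3g and Depp1, named after their values were seen, were the remaining genes of the 8. Sema3g, a secreted semaphorin of arterial endothelium, had 5.77, 5.16 and 5.94 with the inhibitor, against 6.82, 6.65 and 6.03 without it (difference -0.88, adjusted p = 0.995). Depp1, a gene induced by FOXO factors, had 9.31, 9.19 and 10.002 with the inhibitor, against 10.92, 11.07 and 10.55 without it (difference -1.35, adjusted p = 0.995). In both, the inhibitor arrays were lower without overlap. Cxcr4, the receptor of CXCL12 and a marker of arterial and tip cells, had 5.36, 4.94 and 4.75 with the inhibitor, against 6.99, 7.09 and 4.85 without it. On Cxcr4 the third array without the inhibitor was as low as the inhibitor arrays, so the groups overlapped and the difference of -1.29 had an adjusted p of 0.995.

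**Figure D2:**
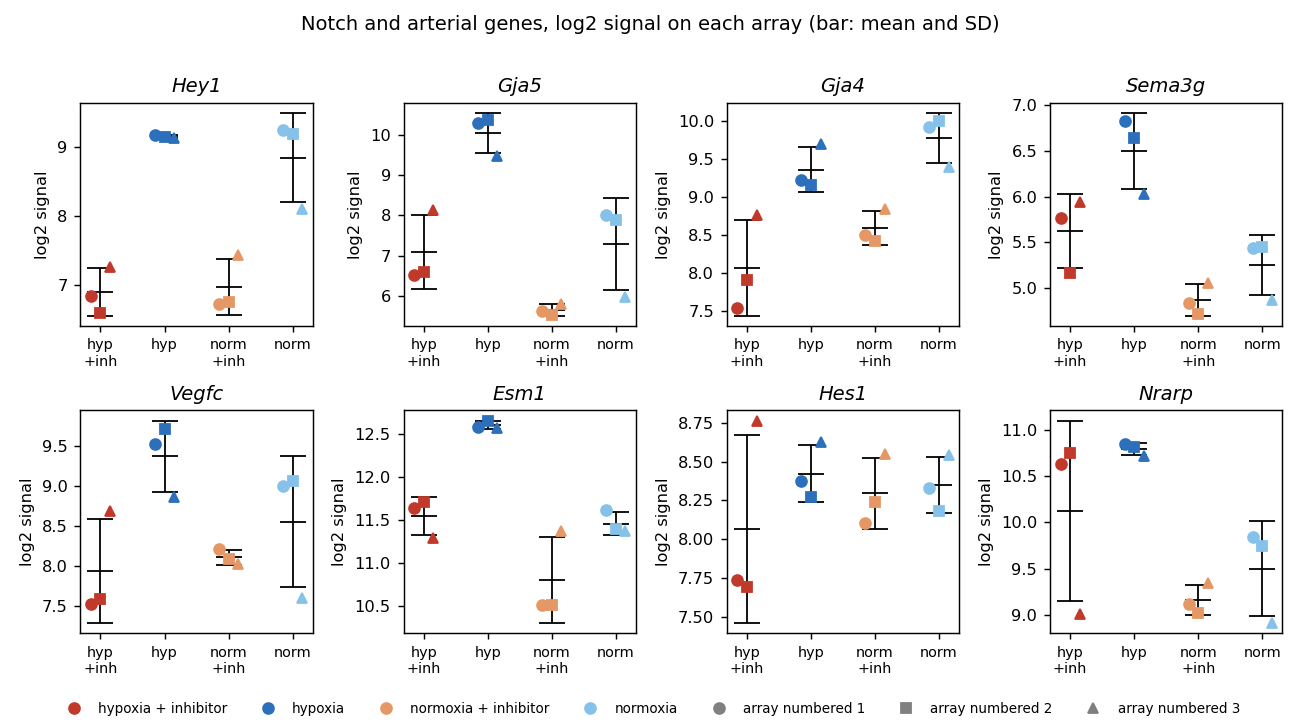
Log2 signal (vertical axes) of 8 genes on each of the 12 arrays, by group, with the mean and SD of the 3 arrays as bars and the array number as the point's shape. Hey1, Gja5, Gja4, Sema3g, Vegfc and Esm1 are lower on each hypoxic array with the inhibitor than on each hypoxic array without it; Hes1 and Nrarp overlap.

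The promoters of the artery-associated genes are shown because RBPJ, the DNA-binding partner of Notch, binds the core motif TGGGAA. RefSeq windows (build GRCm38.p6) from 250 bases before to 50 bases after the start were found for 9 of 11 genes looked up among the Notch targets and artery and tip genes, and TGGGAA on either strand was present in 2 of the 9, Sema3g and Depp1. No window was found for Hey1 and Hes1, so their promoters were not examined. The same motif is in 25.6% of all 32851 such windows. The windows of the connexin genes Gja5 (chr3:97032152-97032451, plus strand) and Gja4 (chr4:127313990-127314289, minus strand) hold no match, Sema3g (chr14:31217623-31217922, plus strand) holds one that begins 31 bases into the transcript, and Depp1 (chr6:116650434-116650733, plus strand) holds one that begins 173 bases before the start. The sequences run 5′ to 3′ along the gene, and capitals mark the match, which in both genes lies on the strand opposite to the gene.
Gja5: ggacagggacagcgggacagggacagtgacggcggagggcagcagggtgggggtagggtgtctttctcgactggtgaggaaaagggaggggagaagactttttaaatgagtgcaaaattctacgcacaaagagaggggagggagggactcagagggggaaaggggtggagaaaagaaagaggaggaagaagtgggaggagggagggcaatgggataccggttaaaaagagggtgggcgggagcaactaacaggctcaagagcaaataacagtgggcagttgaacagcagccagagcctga
Gja4: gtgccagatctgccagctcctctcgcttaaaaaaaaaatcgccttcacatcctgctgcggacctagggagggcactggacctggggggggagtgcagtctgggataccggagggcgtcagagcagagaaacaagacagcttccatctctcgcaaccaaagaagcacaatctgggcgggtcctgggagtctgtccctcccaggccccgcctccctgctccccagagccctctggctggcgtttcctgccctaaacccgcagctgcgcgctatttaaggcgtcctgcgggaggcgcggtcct
Sema3g: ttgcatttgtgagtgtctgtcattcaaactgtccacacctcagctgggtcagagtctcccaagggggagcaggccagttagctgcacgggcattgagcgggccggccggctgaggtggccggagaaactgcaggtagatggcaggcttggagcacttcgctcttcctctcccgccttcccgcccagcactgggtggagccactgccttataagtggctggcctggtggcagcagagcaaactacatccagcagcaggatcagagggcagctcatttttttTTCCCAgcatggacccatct
Depp1: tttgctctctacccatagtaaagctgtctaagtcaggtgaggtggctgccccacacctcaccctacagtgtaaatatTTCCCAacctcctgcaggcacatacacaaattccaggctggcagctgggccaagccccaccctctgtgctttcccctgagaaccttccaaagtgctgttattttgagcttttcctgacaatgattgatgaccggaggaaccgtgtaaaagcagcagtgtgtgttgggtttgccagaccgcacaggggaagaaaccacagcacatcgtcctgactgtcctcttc

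Among the tip cell genes, Esm1 and Angpt2 lay wholly lower. These were 2 of 20 measured genes (10%), beside 4.93% of all genes tested, and 0 were wholly higher. Of the 20, 18 had a negative difference with a median of -0.17, and without the third inhibitor array 14 were negative and 6 positive with a median of -0.10. Between same-numbered arrays the medians of this list were 0.03, -0.01 and -0.52, so its lower median rested on the arrays numbered 3. Esm1, the secreted proteoglycan endocan, had 11.64, 11.71 and 11.29 with the inhibitor, against 12.58, 12.66 and 12.57 without it. The groups were apart on every array, with a difference of -1.06 (SE 0.21), a 2.08-fold lower signal (adjusted p = 0.442, and 0.0254 with array weights). Angpt2, a ligand that antagonises the receptor TIE2 in sprouting vessels, had 9.59, 9.71 and 9.34 with the inhibitor, against 10.27, 10.23 and 11.04 without it, and was also apart (difference -0.97, adjusted p = 0.995). Igfbp3, an IGF-binding protein, had 8.84, 8.91 and 7.06 with the inhibitor, against 10.38, 10.35 and 8.56 without it. Array 3 was lowest in both groups, and the groups overlapped (difference -1.49, adjusted p = 0.995). Leaving out inhibitor array 3 alone gave -0.89, but this kept the low array 3 of the group without the inhibitor. Same-numbered arrays differed by -1.55, -1.44 and -1.49, though the hypoxic arrays were not treated as pairs. Without the arrays numbered 3 of all groups, the alternative added after the data were seen, Igfbp3 passed an adjusted p of 0.05.

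In the VEGF and angiopoietin system 4 of 13 measured genes were wholly lower (Vegfc, Angpt2, Angptl4 and Flt1) and 1 was wholly higher (Vegfb), with a median of -0.0414 that turned to 0.0404 without the third inhibitor array. These shares of 30.8% and 7.69% stand beside 4.93% and 3.9% of all genes tested. Vegfa itself had 10.49, 10.57 and 11.55 with the inhibitor, against 10.48, 10.24 and 10.81 without it, which overlap. Its difference of 0.36 came to 0.02 without the third inhibitor array. Kdr, the main signalling receptor, differed by -0.27 (95% interval -0.69 to 0.16; -0.12 without the third inhibitor array), and Flt1, the decoy receptor, by -0.19. A second, dimmer probe of Flt1 overlapped, at 0.20. Among venous and lymphatic genes 1 of 12 was wholly lower (8.33%, beside 4.93% of all genes tested), Vwf, the clotting factor of endothelial granules, at 8.52, 8.32 and 8.67 with the inhibitor, against 9.21, 9.12 and 10.10 without it (difference -0.97, adjusted p = 0.995). Nr2f2, the venous transcription factor COUP-TFII, had 6.96, 6.40 and 6.39 with the inhibitor, against 5.64, 5.70 and 6.99 without it, which overlap (difference 0.47, 95% interval -0.43 to 1.37). Aplnr had the largest rise of the venous and lymphatic list, at 0.52 (0.98 without the third inhibitor array), and its groups overlapped. The list's median was 0.01, and 0.16 without the third inhibitor array, with 8 of 12 genes then positive. In the adrenomedullin system 0 of 5 measured genes were apart. Adm, the peptide gene, had 8.27, 8.97 and 7.35 with the inhibitor, against 8.33, 8.27 and 8.64 without it, and its difference of -0.22 became 0.21 without the third inhibitor array.

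Immediate early genes, which encode transcription factors that respond to stimuli within minutes, measured higher. Of 15 measured genes of this list, Fosb passed the detection rule through the inhibitor arrays alone and had to measure higher, so it is left out of the counts. All 14 others had a positive difference, and 6 had inhibitor values wholly above the others, where 3.78% of the 9156 genes detected in both groups did. Their median was 0.34, and 0.15 without the third inhibitor array, with 11 of 14 genes then positive. Fos had 9.77, 9.89 and 9.84 with the inhibitor, against 8.94, 8.67 and 8.21 without it. The 3 inhibitor arrays lay close together and above the others, with a difference of 1.22 (SE 0.24), a 2.33-fold higher signal (adjusted p = 0.442, and 0.0254 with array weights). Egr1, a zinc finger factor, had 12.49, 12.49 and 11.82 with the inhibitor, against 11.44, 11.45 and 10.73 without it. The third array was lowest in both groups, the groups were apart, and the difference was 1.06 (SE 0.22, adjusted p = 0.496, and 0.0147 with array weights).

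Fosb, a partner of Jun proteins, had 5.46, 5.93 and 5.26 with the inhibitor, against 4.94, 5.03 and 4.68 without it. It was not well above background on any hypoxic array without the inhibitor, so its signal was at least 1.32-fold higher with it. Jun had 9.29, 9.33 and 9.73 with the inhibitor, against 9.07, 8.96 and 8.94 without it, and was apart (difference 0.46, adjusted p = 0.995). Klf4, a factor of quiescent endothelium and of pluripotent cells, had 8.01, 7.79 and 8.99 with the inhibitor, against 6.79, 7.02 and 7.68 without it, and was apart (difference 1.10, adjusted p = 0.995). That difference came to 0.74 without the third inhibitor array. A second probe of Klf4 was wholly higher, at 0.87, and the dimmest overlapped, at 0.32 (-0.08 without the third inhibitor array). The other genes of the 6 were Egr2 and Klf2. How long the cells were out of culture during sorting is not recorded for these samples, and its part in these values was not tested.

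**Figure D3:**
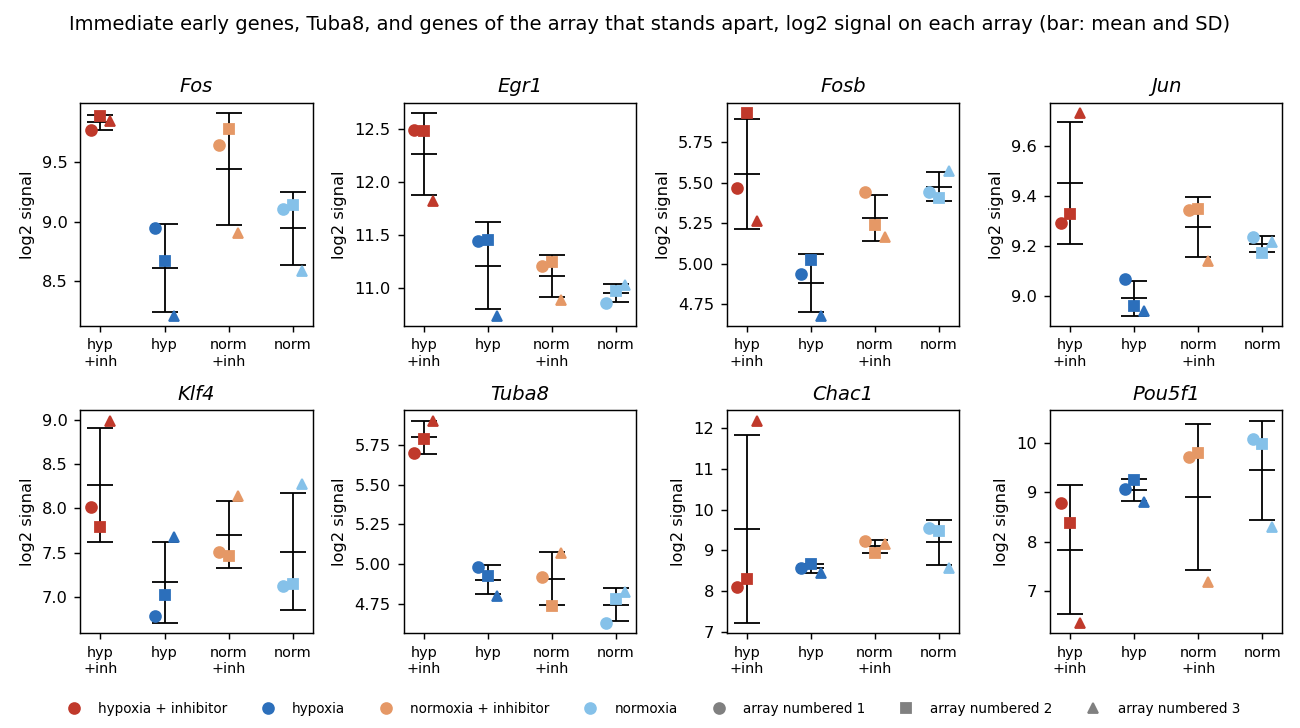
Log2 signal (vertical axes) of 8 genes on each of the 12 arrays, by group, with the mean and SD of the 3 arrays as bars and the array number as the point's shape. Fos, Egr1, Fosb, Jun, Klf4 and Tuba8 are higher on each hypoxic array with the inhibitor than on each without it, while Chac1 and Pou5f1 show the third inhibitor array far from the other 2.

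Several genes outside these lists stood among the 12 smallest p-values in each direction. Tuba8, an alpha-tubulin, had 5.70, 5.79 and 5.90 with the inhibitor, against 4.98, 4.92 and 4.80 without it. It was not well above background on any array without the inhibitor, which makes the signal at least 1.56-fold higher (difference 0.90, SE 0.12, adjusted p = 0.0565). Ssh3, a phosphatase that activates cofilin, was at least 1.62-fold higher by the same reckoning, with 5.995, 5.83 and 5.74 with the inhibitor, against 4.98, 5.01 and 5.04 without it. Both probes had groups apart, but passed the detection rule through the inhibitor arrays alone, and that rule favoured the higher direction. The protease Prss42 and the interleukin 1 family member Il1f10 were likewise detected on the 3 inhibitor arrays and on 0 of the others, at least 1.32-fold and 1.29-fold higher. The detection rule favoured the higher direction for them as well. The remaining genes of the 12 on the higher side, Fbxo3, Ovgp1, Lurap1l, Psme4 and Mgst2, differed by 0.41 to 0.50 with adjusted p-values of 0.643 to 0.995.

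On the lower side, Armcx6, an armadillo repeat gene, had 5.99, 5.61 and 6.21 with the inhibitor, against 7.43, 6.97 and 6.92 without it, which are apart (difference -1.17, SE 0.19, adjusted p = 0.164). Pdyn, the precursor of dynorphin peptides, had 4.88, 5.15 and 4.58 with the inhibitor, where it was not well above background, against 5.74, 5.89 and 5.70 without it, and was at least 1.5-fold lower. Pdyn passed the detection rule through the arrays without the inhibitor alone, and that rule favoured the lower direction. Hira, a chaperone of histone H3.3, had 5.77, 5.89 and 5.69 with the inhibitor, against 6.60, 6.43 and 6.49 without it (difference -0.72, adjusted p = 0.223). Atrx, a chromatin remodeller, Pkig, an inhibitor of protein kinase A, and Slc1a6, a glutamate transporter, were lower by 0.71, 0.77 and 0.70 on the log2 scale, with adjusted p-values of 0.442, 0.496 and 0.595. The probes of Atrx and Slc1a6 were near background, each detected on 1 of 3 inhibitor arrays, which limits the size that can be read. Other probes of some of these genes measured smaller differences or none: those of Armcx6 differed by -0.67 and -0.09 (adjusted p-values 0.995 and 0.996), the second probe of Hira differed by -0.33, that of Pkig by 0.05, that of Fbxo3 by -0.01 and that of Psme4 by -0.11. Which transcript each probe reads was not examined.

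The medians of the hypoxia response lists depended on the third inhibitor array. Among 29 measured targets of HIF factors, 4 were wholly lower (P4ha1, Ddit4, Egln1 and Pfkfb3) and 1 was wholly higher (Insig2), and the median of -0.11 came to 0.0051 without the third inhibitor array. These shares of 13.8% and 3.45% stand beside 4.93% and 3.9% of all genes tested. A second probe of Egln1 overlapped, at -0.14 (0.06 without the third inhibitor array). Egln3, an oxygen sensor that HIF induces, had 11.82, 11.83 and 11.76 with the inhibitor, against 11.83, 11.88 and 11.66 without it. The groups overlapped, and the 95% interval of the difference was -0.25 to 0.28. Ddit4, an inhibitor of mTORC1, had 9.95, 9.95 and 9.9955 with the inhibitor, against 10.33, 10.24 and 10.18 without it, and was apart by -0.29 (adjusted p = 0.995). Of 16 measured glycolysis genes, 4 were wholly lower (Pgk1, Tpi1, Ldha and Gapdh) and Slc2a1, the glucose transporter GLUT1, was wholly higher. These shares of 25% and 6.25% stand beside 4.93% and 3.9% of all genes tested. The Pgk1 probe was near background, detected on 1 of 3 inhibitor arrays. The glycolysis median was -0.31 with all 3 inhibitor arrays and -0.0057 without the third.

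Markers of other cells that a CD31 sort can hold differed between the groups to unequal extents. Stem cells carry CD31. Of 19 measured pluripotency markers 10 were wholly lower (52.6%) and 2, Klf4 and Klf2, wholly higher (10.5%), beside 4.93% and 3.9% of all genes tested. Their median was -0.83, and -0.31 without the third inhibitor array. Their summed normalised signal was 8395 to 14172 on the inhibitor arrays, against 16636 to 18489 on the others. Pou5f1, which encodes OCT4 and was named after its values were seen, had 8.78, 8.38 and 6.35 with the inhibitor, against 9.07, 9.25 and 8.80 without it (difference -1.20, adjusted p = 0.995; -0.46 without the third inhibitor array). On this probe all 3 inhibitor arrays were lower, the third by the most. A second, dimmer probe of Pou5f1 overlapped, at -0.85 (-0.27 without the third inhibitor array). Fgf4 was detected on 0 of the 6 arrays.

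All 8 erythroid markers had a positive difference, 1 of them wholly higher (12.5%, beside 3.9% of all genes tested), with a median of 0.48 and of 0.74 without the third inhibitor array. Their summed signal was 3237 to 5982 with the inhibitor, against 2049 to 4082 without it. Slc4a1, the anion exchanger of red cells, had 7.11, 6.45 and 6.25 with the inhibitor, against 6.09, 5.97 and 5.78 without it, and Hba-x, an embryonic globin, had 9.55, 9.01 and 8.35 with the inhibitor, against 8.24, 8.60 and 7.97 without it. The values of Slc4a1 were apart and those of Hba-x overlapped. Of 13 measured haematopoietic markers 1 was wholly lower (7.69%, beside 4.93% of all genes tested), Gfi1, a repressor of blood and haemogenic cells (difference -0.61, adjusted p = 0.995). Their median was -0.08 (0.0310 without the third inhibitor array) and their sums were 7411 to 9256 with the inhibitor, against 8195 to 9521 without it, with Ptprc, Itgam, Mpo and Tyrobp detected on 0 arrays.

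Of 27 measured endothelial markers, 26 had a negative difference, 4 were wholly lower (Vwf, Sox7, Egfl7 and Flt1, 14.8% beside 4.93% of all genes tested) and 0 wholly higher. The median was -0.18, and -0.08 without the third inhibitor array, with 15 of 27 then negative. Between same-numbered arrays, which were not treated as pairs, the endothelial medians were 0.07, 0.07 and -0.68. The lower median thus rested on the arrays numbered 3. Their summed signal was 100240 to 129455 with the inhibitor, against 122957 to 157396 without it. Pecam1, the sorted marker, had 12.50, 12.45 and 11.75 with the inhibitor, against 12.42, 12.33 and 12.57 without it on its brightest probe, so that the third inhibitor array alone lay below the range of the others. Its second probe was wholly lower, at 10.49, 10.49 and 10.28 with the inhibitor, against 10.54, 10.72 and 10.85 without it. That difference of -0.28 came to -0.21 without the third inhibitor array. Second probes of Egfl7 and Flt1 overlapped (-0.13 and 0.20), and that of Sox7 was wholly lower (-0.59).

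Of 7 mesenchymal markers 1 was wholly higher (14.3%, beside 3.9% of all genes tested), Dcn, the matrix proteoglycan decorin, at 8.16, 7.88 and 9.42 with the inhibitor, against 7.73, 7.61 and 7.30 without it (difference 0.94, adjusted p = 0.995; 0.47 without the third inhibitor array). A second, dimmer probe of Dcn overlapped, at 0.93 (0.47 without the third inhibitor array). The median of the mesenchymal list was 0.11, and -0.07 without that array. Their sums were 2052 to 3006 with the inhibitor, against 1333 to 2271 without it. Of 11 smooth muscle and mural markers 10 had a positive difference and 0 were apart (median 0.23, and 0.27 without the third inhibitor array, sums 67974 to 72966 with the inhibitor, against 48824 to 73988 without it), with Myh11, Cnn1 and Rgs5 detected on 0 arrays. Between same-numbered arrays the mural medians were -0.03, 0.05 and 1.24, so the higher median rested on the arrays numbered 3. Of 6 cardiac markers 1 was wholly higher (16.7%, beside 3.9% of all genes tested), Actc1 (median 0.14, and 0.23 without the third inhibitor array, sums 1158 to 1491 with the inhibitor, against 885 to 1599 without it), with Myh6, Myh7 and Tnni3 at 0 arrays. Endoderm (3 genes, median -0.07, sums 203 to 459 with the inhibitor, against 282 to 493 without it), neural (3 genes, median -0.23, 1859 to 2867, against 2323 to 2959) and epithelial markers (7 genes, median 0.10, 14124 to 15823, against 6631 to 16112) had 0 genes apart. Without the third inhibitor array these medians were 0.13 for endoderm, -0.0605 for neural and 0.24 for epithelial markers. Afp and Ttr, Sox1 and Pax6, and Krt5 were detected on 0 arrays. The part of these other cells in the arterial, tip cell and immediate early results was not tested.

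A group of lists differed in median mainly through the third inhibitor array. All 30 measured targets of ATF4 and the amino acid response, which cells use when amino acids run short or protein folding fails, had a positive difference with a median of 0.46, and without that array 13 of 30 were positive with a median of -0.0082. Trib3 and Psat1 were wholly higher (6.67%, beside 3.9% of all genes tested). Chac1, which breaks down glutathione and was named after its values were seen, had 8.09, 8.28 and 12.19 with the inhibitor, against 8.57, 8.65 and 8.43 without it. Only the third inhibitor array was above the arrays without the inhibitor, and the difference of 0.97 became -0.37 without it. Ddit3, encoding CHOP, behaved alike at 7.56, 7.05 and 10.03 with the inhibitor, against 7.65, 7.79 and 7.52 without it (difference 0.56, and -0.35 without the third array). The inflammatory list had a median of 0.25 over 22 genes and 0.0425 without that array, and cholesterol synthesis -0.26 over 16 genes and -0.0098 without it.

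The other lists had medians between -0.12 and 0.09. They were S phase (20 genes, 2 wholly lower, median -0.12), heat shock (8 genes, 2 wholly lower, -0.0345), unfolded protein response (16 genes, 1 wholly higher, -0.0086), the G2 and M phases (15 genes, 0 apart, -0.007), interferon response (17 genes, 1 wholly lower, 0.0031), BMP and TGF-beta response (19 genes, 1 wholly higher, 0.0067), oxidative phosphorylation (33 genes, 1 lower and 2 higher, 0.0084), extracellular matrix (21 genes, 1 wholly lower, 0.0222), p53 targets (18 genes, 0 apart, 0.0624) and lysosome and autophagy (19 genes, 0 apart, 0.0868). Without the third inhibitor array the medians of these lists lay between -0.12 and 0.10. Over all genes tested 4.93% were wholly lower and 3.9% wholly higher. In the interferon list Rsad2, the antiviral enzyme viperin, had 10.47, 10.59 and 9.43 with the inhibitor, against 9.63, 9.48 and 9.19 without it. For Rsad2 the third inhibitor array lay within the range of the others, and the difference of 0.73 was 1.10 without that array.

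**Figure D4:**
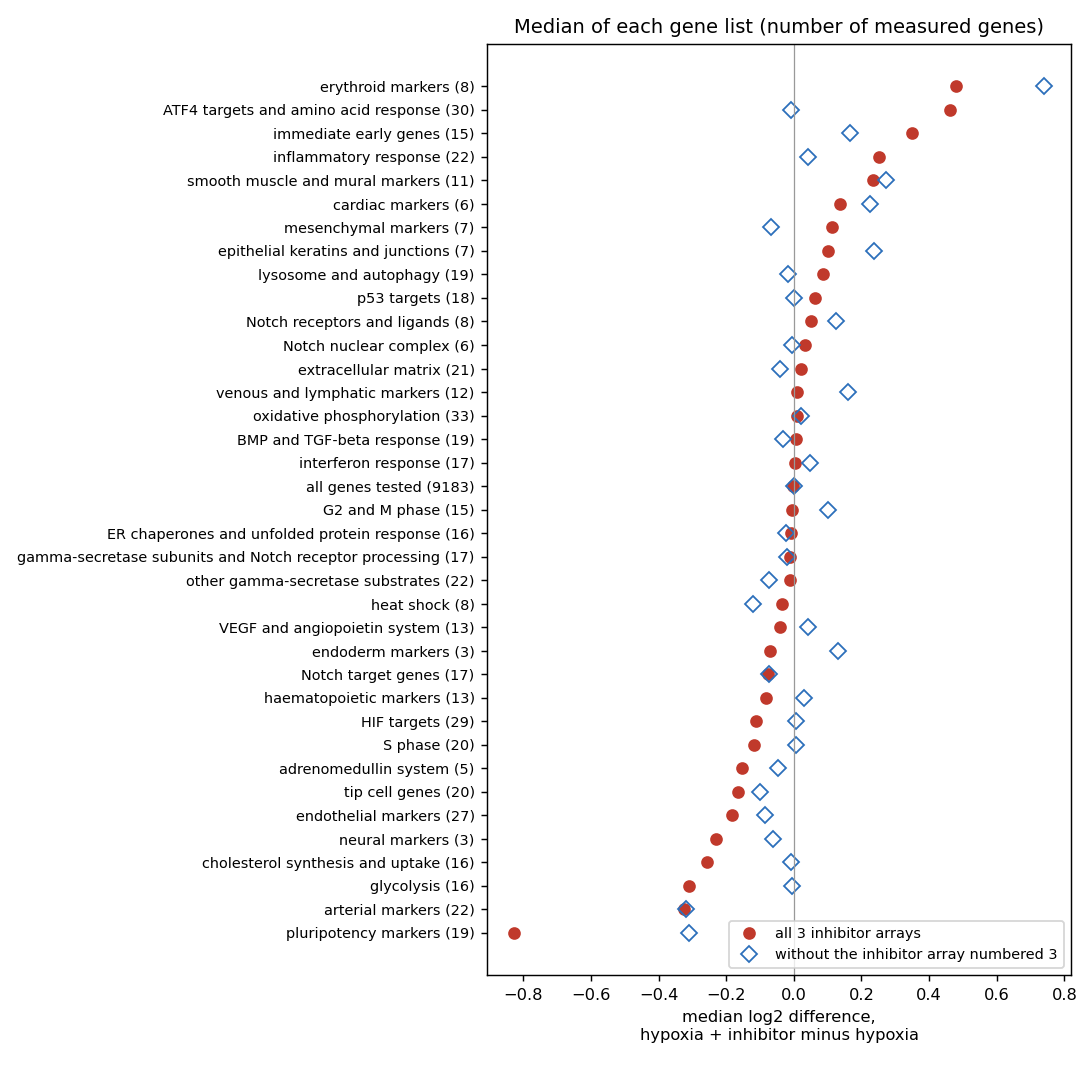
Median log2 difference (horizontal axis, hypoxia with inhibitor minus hypoxia) of the 36 gene lists and of all 9183 genes, with the number of measured genes in brackets; circles use all 3 inhibitor arrays, diamonds leave out the third. The arterial median is -0.33 and -0.32, whereas that of the ATF4 targets is 0.46 and -0.0082.

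The same inhibitor in normoxia gave differences of the same sign for the leading artery genes. Hey1 had 6.72, 6.76 and 7.43 in normoxia with the inhibitor, against 9.24, 9.19 and 8.10 in normoxia without it, a difference of -1.87 beside -2.25 in hypoxia. Gja5 had 5.61, 5.52 and 5.80 in normoxia with the inhibitor, against 8.02, 7.88 and 5.97 without it (-1.64 beside -2.96). Gja4 had 8.51, 8.43 and 8.84 in normoxia with the inhibitor, against 9.93, 10.0045 and 9.40 without it (-1.18 beside -1.29). These 3 genes were wholly lower at both oxygen levels, as were 21 of all 9183 genes (0.229%). The arterial list had 3 genes wholly lower in normoxia and a median of -0.23 there, where 2.7% of all genes were wholly lower.

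The test of the difference between the inhibitor's effects in hypoxia and in normoxia called 0 of 13509 probes, with a lowest adjusted p of 1 and 222 probes at an unadjusted p under 0.05 (1.64%). With array weights it also called 0, with a lowest adjusted p of 0.297 and 791 probes at an unadjusted p under 0.05. For Hey1 the difference of effects was -0.38 (95% interval -1.30 to 0.54), for Gja5 -1.32 (-2.99 to 0.34) and for Gja4 -0.10 (-0.99 to 0.78). For Egr1, with 11.20, 11.24 and 10.88 in normoxia with the inhibitor, against 10.85, 10.97 and 11.02 without it, the difference of effects was 0.90 (0.21 to 1.59, unadjusted p = 0.015). Of the 5 probes with the smallest p in each sign, Hira, Usp12 and Slc45a2 had a difference of effects of -0.94, -0.83 and -0.77, and Ndufb11 and Fbxo3 one of 0.89 and 0.52. Slc45a2 was near background, detected on 1 of 3 arrays both in hypoxia with the inhibitor and in normoxia without it. The others, Pdyn and Pkig on the negative side and Tuba8, Nfkbil1 and Fosb on the positive, were not well above background on any array of at least 1 of the 4 groups, so the size of their difference of effects is not given. Pdyn, Pkig and Tuba8 were not well above background on any normoxic array. Pdyn was at 4.55, 4.82 and 4.72 in normoxia with the inhibitor, against 4.50, 4.62 and 4.77 without it, beside its higher level in hypoxia without the inhibitor. Pkig likewise had 4.41, 4.61 and 5.11 in normoxia with the inhibitor, against 4.63, 4.57 and 4.64 without it.

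**Figure D5:**
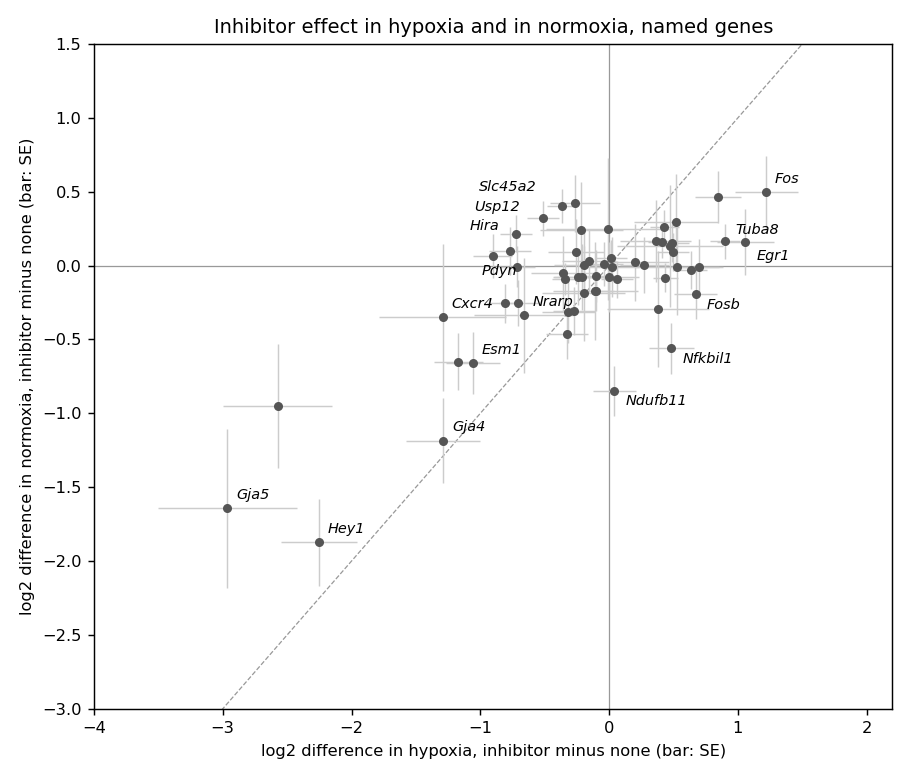
Log2 difference made by the inhibitor in hypoxia (horizontal axis) and in normoxia (vertical axis) for the named and panel genes, with bars for the SE; the dashed line marks equal differences. Hey1 (-2.25 and -1.87), Gja4 (-1.29 and -1.18) and Gja5 (-2.96 and -1.64) are low on both axes, and Egr1 (1.06 and 0.16) and Tuba8 (0.90 and 0.16, not well above background in normoxia) are high on the horizontal axis.

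Detection itself separated the groups for 45 of the kept probes (0.333%), 19 of them detected on the 3 inhibitor arrays and on 0 of the others, and 26 the reverse. Besides Tuba8, Prss42, Ssh3, Fosb and Il1f10 on the inhibitor side and Pdyn and a probe of Gja5 on the other, these included Nostrin, a trafficking protein of endothelial nitric oxide synthase, chosen after its values were seen. Nostrin had 4.99, 5.02 and 4.52 with the inhibitor, where it was not well above background, against 5.53, 5.21 and 6.46 without it. Its groups were apart, with the third array of each group the most extreme. Each of the 45 probes passed the detection rule through a single group, so groups that lie apart were nearly fixed by that choice. They are therefore no separate result. Some of these probes differed little near background, down to -0.19 for Idua and 0.19 for Taf5.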

How the data were processed

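Gene expression was measured on 12 Illumina bead arrays, 3 for each of 4 groups named in the sample titles. Per the file headers, each array's columns in the deposited non-normalized table are an intensity and the p-value of detection. The intensity was already background-subtracted, as 23.6% of values on the 6 hypoxic arrays lie below 0. The deposited processed table holds an intensity floored at 20 and served as an alternative. Per the submitters' processing notes the software was BeadStudio, without a version.

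Background was corrected by limma 3.58.1 (R 4.3.3; normal-exponential model from the detection p-value, offset 16), arrays were quantile normalized together and log2 was taken. The offset makes log2 differences of dim probes smaller than the true change. Group means were fitted over all 12 arrays (8 residual and 3.49 prior degrees of freedom) and p-values were adjusted by Benjamini-Hochberg over 13509 probes. Of 25697 probes 23978 carry 1 gene symbol and 1719 none. Summed levels are sums of the linear normalised signal over a list's genes. Values quoted without the third inhibitor array alone come from the fit that leaves it out or, for lists, from means without it.

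Named genes were the 12 probes of smallest p in each direction among those whose groups do not overlap, 5 for each sign of the difference between oxygen levels, a panel of vascular and Notch genes, and up to 4 members of each of 36 lists by smallest p. Members and lists were chosen with earlier results of these data known. The series calls the replicates biological, and nothing more on what they share was found in the labels. The number of arrays limits precision.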

Additional observations from a re-analysis of the deposited data

Results flagged for a closer look

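Usp12, a deubiquitinase, and Slc45a2, a transporter of pigment cells, had groups apart in opposite directions at the 2 oxygen levels. Usp12 had 6.27, 6.27 and 6.19 in hypoxia with the inhibitor, against 6.66, 6.68 and 6.93 in hypoxia, and 6.40, 6.59 and 6.33 in normoxia with the inhibitor, against 5.95, 6.19 and 6.22 in normoxia. The difference between its effects was -0.83 (SE 0.17, unadjusted p = 0.000454, limma adjusted p = 1), and the second probe of Usp12 gave -0.36. Slc45a2 had 5.26, 5.14 and 5.04 in hypoxia with the inhibitor, against 5.53, 5.64 and 5.36 in hypoxia, and 5.54, 5.44 and 5.67 in normoxia with the inhibitor, against 5.07, 5.15 and 5.21 in normoxia. The difference between its effects was -0.77 (SE 0.16, unadjusted p = 0.000538, limma adjusted p = 1). Neither passed the adjusted threshold. Slc45a2 was near background, detected on 1 of 3 arrays in hypoxia with the inhibitor and on 1 of 3 in normoxia without it. This limits the size of difference that can be read for it. Groups of 3 arrays are too small for a test of single outlying arrays.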

How the results depend on the processing

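The test called 0 probes in each direction under median scaling (which moves the median of all genes by 0.0521), the other detection filters, the trended prior and the replicate block, also for the difference between oxygen levels. Same-numbered deviations of the hypoxic groups correlated by 0.0792, 0.026 and 0.0437, so the hypoxic arrays were not treated as pairs, while those of the normoxic groups correlated by 0.4124, 0.4085 and 0.6575. For the difference between oxygen levels, the replicate block gave 443 probes an unadjusted p under 0.05, against 222 without it. With the replicate block Hey1 had an adjusted p of 0.169 and 973 probes an unadjusted p under 0.05. Counts of called probes differed elsewhere: an offset of 50 gave 2 lower (Gja5 and Hey1), the 6 hypoxic arrays alone gave 1 lower (Hey1) both when fitted and when also normalized alone, and the authors' processed table gave 1 higher (Tuba8) and 4 lower (Hey1, Pdyn, Pkig and Afmid). Array weights gave 5 higher and 12 lower. Leaving out 1 array gave 0 to 1 higher and 0 to 2 lower, with calls only without the third array of normoxia with the inhibitor (Tuba8, Esm1 and Hey1) and without the third array of normoxia (Hey1). Of the alternatives added after the data were seen, the 6 hypoxic arrays less the third inhibitor array gave 3 lower (Hey1 and Gja5), and leaving out the arrays numbered 3 of all groups gave 17 higher and 24 lower. Of 99 results for single probes under 21 to 25 settings each 83 never changed sign, among them those of Hey1 (-2.45 to -1.97), Gja4, Gja5, Esm1, Fos, Egr1 and Tuba8 in hypoxia, and 23 were called in some setting. The cause of the sign changes below was not tested. Leaving out 1 array gave Ramp2 -0.26 to 0.0481, Nrp1 -0.14 to 0.12, Pecam1 -0.34 to 0.0305, Egln3 -0.0527 to 0.0583, Gpnmb -0.0689 to 0.68, Ncstn -0.0019 to 0.10, Sox17 -0.28 to 0.0761, Ramp3 -0.35 to 0.64, Adm -0.60 to 0.21, Ephb4 -0.0743 to 0.18, Psen2 -0.16 to 0.015, Nrp2 -0.20 to 0.15, Notch2 -0.30 to 0.0713, Chac1 -0.37 to 1.68 and Ddit3 -0.35 to 1.14. On the 6 hypoxic arrays less the third inhibitor array, Nrp1 came to 0.0404, Pecam1 0.0305, Gpnmb -0.0689, Ramp3 0.64, Adm 0.21, Nrp2 0.12, Chac1 -0.37 and Ddit3 -0.35. With array weights Ramp2 came to 0.0016, Nrp1 0.12, Pecam1 0.0271, Egln3 -0.0068, Ramp3 0.62, Adm 0.25, Chac1 -0.16 and Ddit3 -0.27. Without the arrays numbered 3 of all groups Ramp2 came to 0.10, Nrp1 0.20, Pecam1 0.0964, Egln3 -0.0298, Gpnmb -0.0472, Ramp3 0.83, Adm 0.32, Apln 0.0619, Chac1 -0.43 and Ddit3 -0.41. Median scaling gave Nrp1 0.0407, Ramp3 0.0456 and Nrp2 0.0392, and the processed table gave Nrp1 0.003. Where a probe is near background, its signal limits the size of difference that can be read.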
